A study of Mus musculus with 6 samples.

Results

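Pre-mRNA splicing factors were followed across cultured mouse prostate cancer stem-like cells: SR proteins (Srsf), hnRNP proteins (Hnrnp), proteins of the small nuclear ribonucleoprotein particles or snRNPs (Snrp, Sf3a, Sf3b, Lsm, Prpf), the U2AF subunits, numbered Rbm proteins, CELF proteins and PTBP proteins. Members were all genes of these families with an array row of their own, taken by gene symbol. There were 89 of them among 9490 genes with 1 symbol. The RefSeq gene table holds 129 protein-coding genes whose symbols follow the same rule, so 40 of those were not analysed here. The rows covered 9 of 11 SR, 14 of 21 hnRNP, 10 of 12 Snrp, 8 of 9 SF3A and SF3B, 11 of 13 Lsm, 10 of 13 Prpf, 20 of 38 Rbm, 2 of 3 U2AF, 4 of 6 CELF and 1 of 3 PTBP genes.

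The cells came from TRAMP mice, a transgenic strain in which viral T antigens are driven in prostate epithelium by the probasin promoter, a transgene that both groups share. The 3 TPIN samples were grown from prostates of mice aged 10 to 11 weeks with intraepithelial neoplasia, and the 3 TNE samples from prostates with neuroendocrine tumours, whose age the labels do not give. All 6 cultures received EGF and FGF2 and no serum, and each gave 1 array of total RNA. One label, the description, gives intraepithelial neoplasia to every sample, TNE included, so the groups rest on the titles and the cell type labels. Whether samples of a group are from different mice or cultures is not stated, so p-values reflect only the spread between these arrays, and that spread may be technical. In bulk RNA a smaller share of cells of a type and less RNA per cell cannot be told apart.

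Introns are removed from a pre-mRNA by the spliceosome, which is built from the U1, U2, U4, U5 and U6 snRNPs and their proteins. U1 recognises the start of an intron, U2AF and the U2 snRNP recognise its end and branch point, and the joined U4, U6 and U5 particle then enters to form the active complex. SR proteins bind exons and mostly favour their inclusion, whereas many hnRNP proteins counter them, and the balance between both kinds helps to set which exons a cell keeps. Tissue-specific regulators such as CELF, NOVA and ELAVL proteins act on top of that machinery. In prostate cancer, splicing is known for its variants of the androgen receptor and for neuronal exon choices in neuroendocrine tumours.

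The table covers part of the array, and its median row had a range of 1.47 over the 6 arrays on the log2 scale. Fibroblast and smooth muscle markers and cell cycle genes differed strongly between the groups, and neuroendocrine and neuronal markers did so in part. Of all genes 10.3% rose and 10.2% fell in TNE, at a limma adjusted p under 0.05. An unadjusted p under 0.05 in limma was common, with 3690 of all 9490 genes, and counts at that cutoff are to be read beside it. Of 15 measured fibroblast and smooth muscle markers 11 fell in TNE, and the list mean was 11.21 to 11.51 on the TPIN arrays and 7.65 to 8.49 on the TNE arrays. Of 29 cell cycle genes 22 rose in TNE and none fell (29 of 29 differences positive, 25 with unadjusted p under 0.05 in limma). Of 17 listed neuroendocrine and neuronal markers 9 were measured and 4 rose (44.4%), with a list mean of 7.44 to 7.92 in TPIN and 8.52 to 9.95 in TNE. Differences were positive for 8 and negative for 1, Eno2, which was lower on every TNE array (log2 difference -0.79, limma adjusted p = 0.11). Ncam1 was level (log2 difference 0.04). The epithelial markers Krt8 and Krt18, the only 2 of 14 measured, had 7.86 to 7.98 and 8.15 to 8.42 in TPIN and 7.30 to 7.78 and 7.43 to 7.73 in TNE. Neither passed (limma adjusted p = 0.378 and 0.0967). None of 3 immune markers passed or had an unadjusted p under 0.05 in limma, and of 4 endothelial markers 1 rose and 1 fell. The part of these marker lists in the splicing results was not tested.

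Splicing factor genes were mostly higher in TNE than in TPIN cells. Of the 89 genes 20 rose (22.5%) and none fell, at a limma adjusted p under 0.05 over all genes, whereas 10.3% of all genes rose and 10.2% fell. At an unadjusted p under 0.05, 53 of the 89 genes passed in limma, against 3690 of all 9490. Of the 53, 52 were higher in TNE and 1, Rbm47, was lower. Differences were positive for 79 genes and negative for 10. The median log2 difference, TNE minus TPIN, was 0.81 for the 89 genes and -0.02 for all genes. The middle part of the members ran from 0.39 to 1.13 (quartiles), against -0.69 to 0.64 for all genes. All 3 TNE arrays lay above all 3 TPIN arrays for 50 members (56.2%, against 23.3% of all genes), and below them for 1, Rbm47 (1.12%, against 20.5%). The 20 genes that rose did so by 1.93-fold to 4.65-fold, 18 of them by at least 2-fold, and the groups did not overlap in any of the 20.

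**Figure D1:**
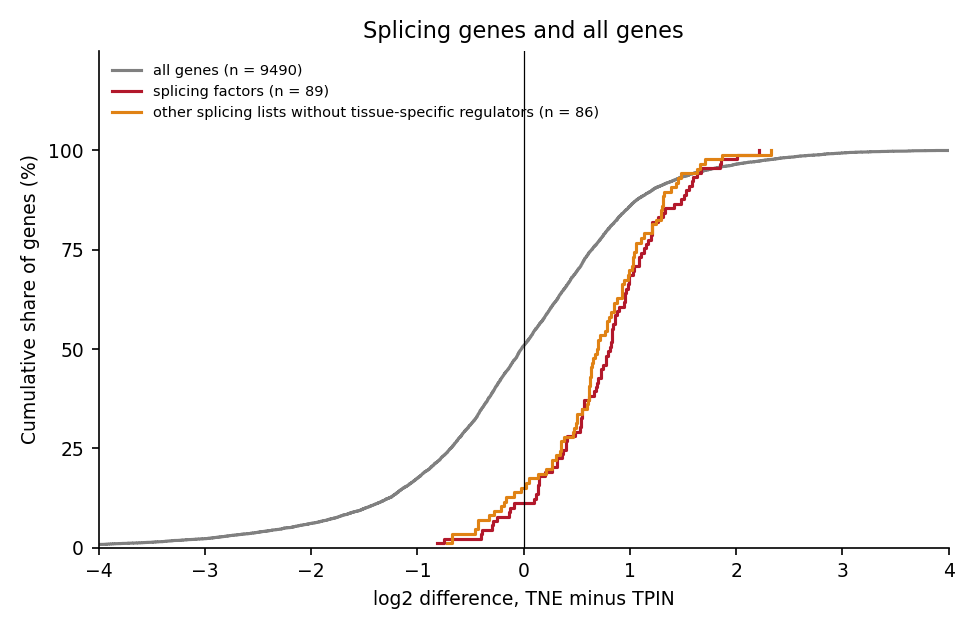
Cumulative share of genes (percent) by log2 difference, TNE minus TPIN, for all 9490 genes, the 89 splicing factor genes and 86 genes of other splicing lists. The curve of the splicing factors lies to the right of that of all genes, with medians of 0.81 and -0.02, and 10 of its 89 genes lie below 0.

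The count depended on which arrays were used. Leaving out TPIN replicate 1, 2 or 3 gave 2, 4 and 41 genes higher in TNE. Leaving out TNE replicate 1, 2 or 3 gave 13, 2 and 7. The members' share was above that of all genes without TPIN replicate 3 (46.1% against 13.8%) and TNE replicate 1 (14.6% against 7.78%). It was near it without TNE replicate 3 (7.87% against 7.0%). It was below it without TPIN replicate 1 (2.25% against 4.07%), TPIN replicate 2 (4.49% against 5.66%) or TNE replicate 2 (2.25% against 3.76%). The median difference of the members moved less, between 0.67 and 0.90. Weighting the arrays by their fit (limma array weights) gave 55 members higher (61.8%, against 23.7% of all genes).

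SR proteins, which bind exons through RNA recognition motifs and recruit the spliceosome through arginine-serine tails, included 5 genes that rose. These were 5 of 9 (55.6%, against 10.3% of all genes), and all 9 differences were positive, with a median of 1.48. Srsf1, the founding member and a known oncoprotein, had log2 values of 9.93, 10.56 and 11.04 on TPIN replicates 1 to 3 and of 12.20, 12.44 and 12.44 on TNE replicates 1 to 3. The TPIN arrays were spread over more than 1 log2 unit, the TNE arrays lay close together, and the groups did not overlap. Srsf1 was 3.61-fold higher in TNE (10.51 ± 0.56 against 12.36 ± 0.14, SD, n = 3 each; log2 difference 1.85, SE 0.34, limma adjusted p = 0.00981). It passed without any 1 array, which among the 89 members only Lsm6 did as well.

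Srsf10, an SR protein that acts as a repressor when dephosphorylated, had 7.64, 8.11 and 8.61 in TPIN and 9.36, 9.77 and 9.89 in TNE. The lowest TNE array lay above the highest TPIN array by a smaller step than for Srsf1. Srsf10 was 2.94-fold higher (8.12 ± 0.49 against 9.68 ± 0.28, SD, n = 3 each, limma adjusted p = 0.0171). Srsf4, another SR protein, had 9.64, 10.23 and 11.03 in TPIN and 11.69, 11.88 and 11.94 in TNE. TPIN replicate 3 was the highest TPIN array for both genes, and replicate 1 the lowest. Srsf4 was 2.89-fold higher (10.30 ± 0.70 against 11.83 ± 0.13, SD, n = 3 each, limma adjusted p = 0.0285). Srsf3, the smallest SR protein, and Srsf2, also known as SC-35, rose by 2.84-fold and 1.93-fold (limma adjusted p = 0.0457 and 0.0445). The call of Srsf10 was lost without TPIN replicate 1 or 2 or TNE replicate 2. Srsf4 and Srsf3 lost theirs without any of these and without TNE replicate 3, and Srsf2 lost its call without any 1 array.

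Srsf5, an SR protein first found as an insulin-induced gene, stood apart through 1 array. It had 9.45 and 9.82 on TPIN replicates 1 and 2, 12.01 on TPIN replicate 3, and 11.82, 11.97 and 11.93 on the TNE arrays. TPIN replicate 3 was thus above every TNE array, and Srsf5 did not pass (log2 difference 1.48, limma adjusted p = 0.122), although it did without TPIN replicate 3. Srsf6, Srsf11 and Srsf12 had log2 differences of 0.75, 0.31 and 0.14 and did not pass, of which Srsf6 did without TPIN replicate 3.

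**Figure D2:**
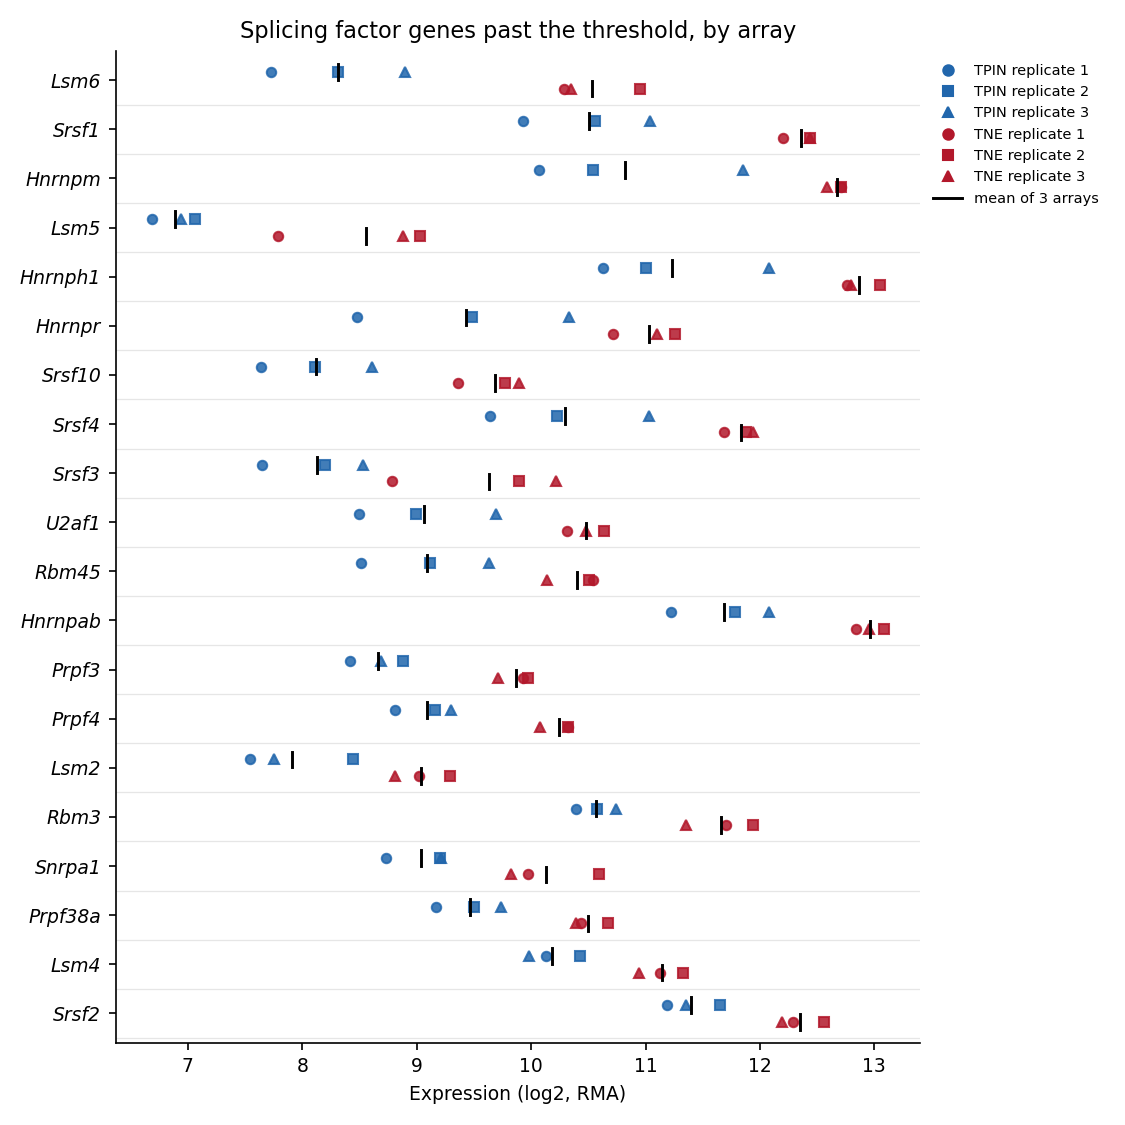
Log2 RMA expression of the 20 splicing factor genes that passed, in order of their difference, with 1 point for each array (3 TPIN in blue, 3 TNE in red) and a bar at each group mean. In no row do the colours overlap, TPIN replicate 1 is the lowest TPIN array in 19 of the 20 rows, and TPIN replicate 3 the highest in 15.

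The hnRNP proteins coat nascent transcripts and act as silencers or enhancers of splicing by their position. All 14 measured genes had a positive difference (median 1.04), and 4 rose (28.6%, against 10.3% of all genes). In 12 all TNE arrays lay above all TPIN arrays (85.7%, against 23.3% of all genes). Hnrnpm, an hnRNP that promotes exon skipping and is known for its part in epithelial-mesenchymal switches, had 10.07, 10.54 and 11.85 in TPIN and 12.71, 12.71 and 12.59 in TNE. Its TNE arrays were almost level, and its TPIN arrays were widely spaced below them. Hnrnpm was 3.61-fold higher in TNE (10.82 ± 0.92 against 12.67 ± 0.07, SD, n = 3 each, SE 0.45, limma adjusted p = 0.0272). Hnrnph1, which binds runs of G, had 10.63, 11.00 and 12.08 in TPIN and 12.76, 13.05 and 12.80 in TNE, a 3.10-fold rise (11.23 ± 0.75 against 12.87 ± 0.16, SD, n = 3 each, limma adjusted p = 0.0272). TPIN replicate 3 stood nearer to the TNE arrays than to the other TPIN arrays for Hnrnpm and Hnrnph1.

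Hnrnpab, an A/B-type hnRNP that also acts in transcription and RNA transport, had 11.22, 11.78 and 12.08 in TPIN and 12.84, 13.08 and 12.95 in TNE. The groups were separate, and again TPIN replicate 3 was the highest of its group. Hnrnpab was 2.40-fold higher (11.69 ± 0.44 against 12.96 ± 0.12, SD, n = 3 each, limma adjusted p = 0.0261), and Hnrnpr, a relative of Syncrip, 3.03-fold (9.43 ± 0.93 against 11.03 ± 0.28, SD, n = 3 each, limma adjusted p = 0.0475). Hnrnpab and Hnrnph1 lost their calls without TPIN replicate 1 or 2 or TNE replicate 2 or 3, and Hnrnpm and Hnrnpr without any 1 array other than TPIN replicate 3. Of the 10 that did not pass, Hnrnpa2b1, a core hnRNP, had 11.10, 11.49 and 11.63 in TPIN and 12.13, 12.39 and 12.28 in TNE (log2 difference 0.86, limma adjusted p = 0.0593). Hnrnpu, the scaffold-associated hnRNP, Hnrnpf, Hnrnpk and Hnrnpd had log2 differences of 0.94, 1.33, 1.20 and 1.10 with limma adjusted p from 0.0578 to 0.0760. Hnrnph2, the X-linked relative of Hnrnph1, had 9.06, 9.51 and 10.54 in TPIN and 10.73, 10.67 and 10.66 in TNE, where the TNE arrays were level and TPIN replicate 3 came close to them. Its difference of 0.98 did not pass (limma adjusted p = 0.108). Hnrnpll, which controls exons of Ptprc in lymphocytes, Hnrnpdl and Hnrnpa0 had differences of 0.84, 0.79 and 0.70. Hnrnpul2 had the smallest difference of the family (0.27).

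TPIN replicate 3 was the highest TPIN array for 14 of 14 hnRNP genes, and TPIN replicate 1 the lowest for 13. The family mean was 10.23, 10.60 and 11.35 on TPIN replicates 1 to 3 and 11.82, 11.94 and 11.72 on TNE replicates 1 to 3, so the groups stayed apart while TPIN was wide. Without TPIN replicate 3, 13 of 14 hnRNP genes rose at the limma threshold, against 13.8% of all genes. None did without TPIN replicate 1 or 2 or TNE replicate 2 or 3, against 3.76% to 7.0% of all genes. SR proteins shared the pattern, with means of 9.22, 9.58 and 10.05 in TPIN and 10.54, 10.86 and 10.81 in TNE. Among all 89 members replicate 3 was the highest TPIN array for 55.1% and replicate 1 the lowest for 62.9%, against 35.9% and 29.6% of all genes. Prpf and Rbm means also rose from TPIN replicate 1 to 3. Other families did not share that order and had their highest TPIN mean on replicate 2. Means on TPIN replicates 1 to 3 were 9.89, 10.17 and 9.94 for Snrp, 9.15, 9.37 and 9.15 for Lsm and 9.47, 9.65 and 9.24 for SF3A and SF3B genes. Cell cycle genes did not order the TPIN arrays as hnRNP and SR genes did. Their mean was 8.40, 9.82 and 7.98 in TPIN and 10.87, 11.19 and 11.09 in TNE, with replicate 2 the highest TPIN array for 29 of 29 genes and replicate 3 the lowest for 22. TPIN replicate 3 thus had the highest hnRNP and the lowest cell cycle mean of its group.

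**Figure D3:**
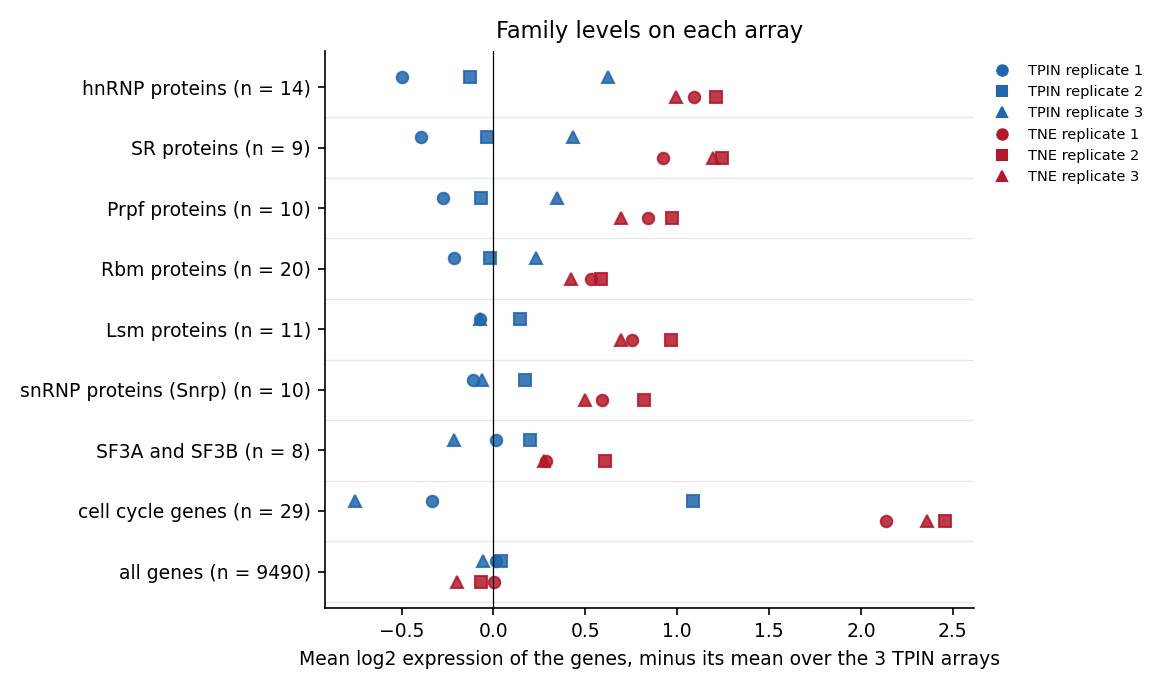
Mean log2 expression of each family on each array, minus its mean over the 3 TPIN arrays, for 7 splicing families, cell cycle genes and all genes (points are arrays, TPIN in blue, TNE in red). The blue triangle (TPIN replicate 3) is the highest TPIN point for hnRNP, SR, Prpf and Rbm proteins. It is the lowest for SF3A and SF3B, for cell cycle genes and for all genes. Every red point lies above the blue points of the same splicing family.

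Among the 11 Lsm genes 4 rose (36.4%, against 10.3% of all genes): Lsm2, Lsm4, Lsm5 and Lsm6. Their products belong to the ring that holds U6 RNA and also to a cytoplasmic ring of mRNA decay, so the calls do not single out either ring. LSm2 to LSm8 form a 7-membered ring on the end of U6, and all 7 genes had a row. Of these 4 rose (57.1%, against 10.3% of all genes), with a median of 0.97. In 6 all TNE arrays lay above all TPIN arrays (85.7%, against 23.3% of all genes). Lsm6 had the largest difference of all 89 members, with 7.73, 8.31 and 8.90 in TPIN and 10.29, 10.95 and 10.35 in TNE. The groups lay more than 1 log2 unit apart, with TPIN replicate 1 lowest. Lsm6 was 4.65-fold higher in TNE (8.31 ± 0.58 against 10.53 ± 0.36, SD, n = 3 each; log2 difference 2.22, SE 0.37, limma adjusted p = 0.00733), a call kept without any 1 array.

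Lsm5 had 6.69, 7.06 and 6.94 in TPIN and 7.79, 9.03 and 8.88 in TNE. Here TPIN was narrow and TNE wide, with TNE replicate 1 well below the other TNE arrays. Lsm5 was 3.18-fold higher (6.89 ± 0.19 against 8.56 ± 0.68, SD, n = 3 each, limma adjusted p = 0.0208), and Lsm2 and Lsm4 rose by 2.19-fold and 1.94-fold (limma adjusted p = 0.0454 and 0.0435). Lsm5 lost its call without TPIN replicate 1 or 2 or TNE replicate 2 or 3, Lsm2 without any 1 array other than TPIN replicate 2, and Lsm4 without any 1 array. Lsm3 and Lsm7 had log2 differences of 0.97 and 0.90 (limma adjusted p = 0.0557 and 0.0619). Lsm8, the subunit found only in the nuclear ring, had 10.57, 10.45 and 9.32 in TPIN and 10.82, 10.44 and 10.25 in TNE and did not pass (log2 difference 0.39, 95% interval -0.51 to 1.30, limma adjusted p = 0.477). TPIN replicate 3 was low here, whereas it was high for most hnRNP genes. Lsm1, which takes the place of LSm8 in the cytoplasmic ring that acts in mRNA decay, had a difference of 0.77 (limma adjusted p = 0.112). Of the 4 Lsm genes outside the U6 ring (Lsm1, Lsm10, Lsm12 and Lsm14a) none passed and 1, Lsm1, had an unadjusted p under 0.05 in limma; their median was 0.13. Lsm12 had 12.42, 12.37 and 11.14 in TPIN and 11.35, 11.83 and 11.56 in TNE (difference -0.40), with TPIN replicate 3 again lowest. Lsm10, of the U7 particle that matures histone mRNA, had a difference of -0.30, and Lsm14a, of cytoplasmic granules, one of 0.57. A difference between the ring and these 4 was not tested.

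Prpf genes encode spliceosome proteins named after yeast splicing mutants. All 10 had a positive difference (median 0.87), and 3 rose (30.0%, against 10.3% of all genes). Prpf3 and Prpf4 bind each other on the U4 and U6 particle. Prpf3 had 8.42, 8.88 and 8.69 in TPIN and 9.93, 9.97 and 9.71 in TNE, and Prpf4 had 8.81, 9.16 and 9.30 in TPIN and 10.32, 10.32 and 10.08 in TNE. Both genes were tight within each group and apart between them. Prpf3 was 2.31-fold higher in TNE (8.66 ± 0.23 against 9.87 ± 0.14, SD, n = 3 each, limma adjusted p = 0.0185) and Prpf4 2.22-fold (9.09 ± 0.25 against 10.24 ± 0.14, SD, n = 3 each, limma adjusted p = 0.0232). Prpf3 lost its call without TPIN replicate 1 or TNE replicate 2, and Prpf4 without TPIN replicate 1 or 2 or TNE replicate 1 or 2.

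Prpf6 and Prpf31, which join U5 to the U4 and U6 particle, had log2 differences of 0.81 and 0.86 and did not pass (limma adjusted p = 0.109 and 0.0926), though TNE lay above TPIN in both. Prpf38a, which enters with the assembled particle and is needed for activation, rose by 2.04-fold (limma adjusted p = 0.0364), a call lost without any 1 array other than TPIN replicate 3. Prpf4b, a kinase of the spliceosome, had 9.27, 9.66 and 10.37 in TPIN and 10.57, 10.73 and 10.96 in TNE, with TNE above TPIN but near it at replicate 3 (difference 0.99, limma adjusted p = 0.0751). Prpf39, a U1-associated protein, and Prpf38b had differences of 0.88 and 0.69 and overlapping groups. Prpf19, the ubiquitin ligase of the activated spliceosome, had a difference of 0.54, and Prpf40b, also tied to U1, one of 0.20. Neither passed (limma adjusted p = 0.263 and 0.629).

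All 10 Snrp genes had a positive difference (median 0.64, against -0.02 for all genes). In 7 all TNE arrays lay above all TPIN arrays (70.0%, against 23.3% of all genes). Of 10 U2 proteins taken by the symbol rule 1 rose (10.0%), against 10.3% of all genes, and of 2 U1 proteins none passed. With so few genes neither count was read as a likeness to, or a difference from, all genes. Of 6 genes of the Sm ring, the proteins shared by U1, U2, U4 and U5, none passed (median 0.61, all 6 positive). An unadjusted p under 0.05 in limma was found for 3 of them, against 3690 of all 9490 genes. Snrpa1, a U2 protein, was the 1 of 10 Snrp genes that rose (10.0%), by 2.12-fold (9.04 ± 0.27 in TPIN, 10.13 ± 0.41 in TNE, SD, n = 3 each, limma adjusted p = 0.0469), and its call was lost without any 1 array. Snrpa, of the U1 particle, had 10.76, 11.02 and 10.39 in TPIN and 10.86, 10.90 and 10.77 in TNE. These groups overlapped, and the difference was 0.12 (95% interval -0.52 to 0.76, limma adjusted p = 0.765). Snrpd2, a Sm protein, had 8.52, 8.83 and 8.50 in TPIN and 9.35, 9.52 and 9.45 in TNE, and Snrpc, of U1, 9.08, 9.22 and 9.86 in TPIN and 10.38, 10.70 and 10.05 in TNE. Both were higher on every TNE array, with differences of 0.82 and 0.99, and just failed the threshold (limma adjusted p = 0.0560 and 0.0646). The Sm genes Snrpe, Snrpg, Snrpd1, Snrpb and Snrpd3 had differences of 0.73, 0.66, 0.55, 0.48 and 0.31, and Snrpb2, of U2, one of 0.62.

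None of the 8 genes with an Sf3a or Sf3b symbol, whose products clamp the U2 particle on the branch point, passed. Of these 2 had an unadjusted p under 0.05 in limma, against 3690 of all 9490 genes. Of all genes 10.3% were higher, so 0 of 8 was not read as a difference from them. The median of the 8 was 0.46, against -0.02 for all genes. Phf5a, an SF3B subunit that the symbol rule does not take in, rose by 2.08-fold (limma adjusted p = 0.0358). Its call was lost without any 1 array other than TPIN replicate 3. Sf3b6, which contacts the branch point adenosine, had 8.33, 8.82 and 8.77 in TPIN and 8.80, 10.66 and 10.08 in TNE (log2 difference 1.21, limma adjusted p = 0.102), with TNE replicate 1 at the level of TPIN. Sf3b3 had 11.12, 11.34 and 11.60 in TPIN and 11.91, 11.94 and 11.91 in TNE, a difference of 0.56 without overlap (limma adjusted p = 0.149). Sf3b2, Sf3a3, Sf3a1 and Sf3b5 had differences of 0.83, 0.68, 0.37 and 0.13 and did not pass. Sf3a2 and Sf3b4 had negative differences of -0.40 and -0.29. Sf3a2 was at 9.91 and 10.42 on TPIN replicates 1 and 2, at 8.50 on replicate 3 and at 9.16, 9.13 and 9.33 in TNE, so that without TPIN replicate 3 it was called lower in TNE.

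Of the U2AF dimer 1 subunit passed. U2af1, the small subunit that reads the AG at the end of the intron, had 8.50, 8.99 and 9.69 in TPIN and 10.31, 10.64 and 10.48 in TNE, with no overlap. It was 2.67-fold higher in TNE (9.06 ± 0.60 against 10.48 ± 0.17, SD, n = 3 each; log2 difference 1.42, limma adjusted p = 0.0288), a call lost without TPIN replicate 1 or 2 or TNE replicate 2 or 3. U2af2, the large subunit that binds the polypyrimidine tract, had 10.31, 10.61 and 9.41 in TPIN and 10.21, 10.47 and 10.06 in TNE. Its groups overlapped, and the difference was 0.14 (95% interval -0.70 to 0.98, limma adjusted p = 0.797). The difference between both subunits was not tested.

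**Figure D4:**
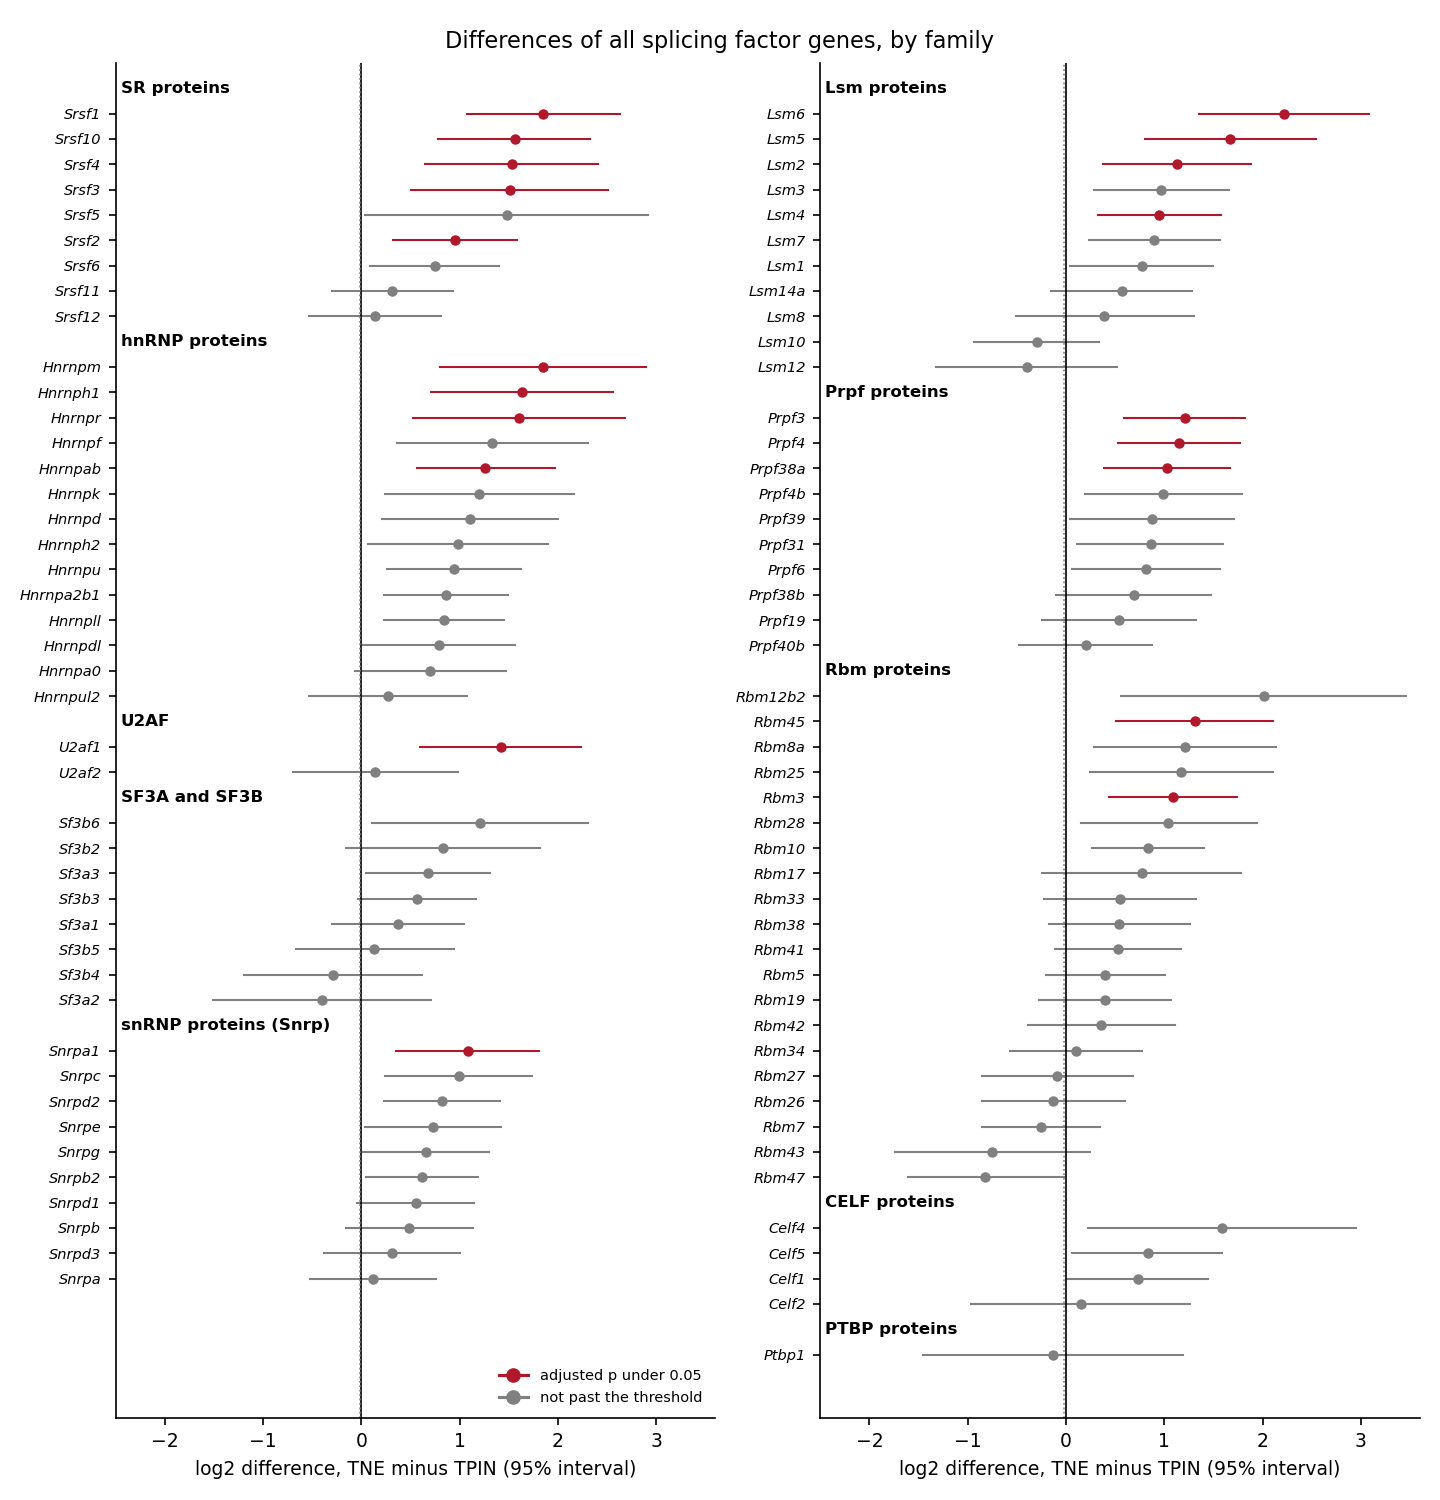
Log2 difference, TNE minus TPIN, of all 89 genes by family, with 95% limma intervals (red, adjusted p under 0.05; grey, not past the threshold; solid line at 0, dotted line at the median of all genes, -0.02). All SR, hnRNP, Prpf and Snrp genes lie right of 0, whereas Rbm genes run from -0.82 to 2.01 and SF3A and SF3B genes from -0.40 to 1.21.

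Rbm proteins share RNA recognition motifs but not a common role, and their differences had the widest range of the families. Of 20 genes 2 rose (10.0%, close to the 10.3% of all genes), 15 had a positive and 5 a negative difference, and the median was 0.54. Rbm3, a cold-inducible protein that supports translation, had 10.39, 10.58 and 10.74 in TPIN and 11.70, 11.94 and 11.35 in TNE. The groups were clearly apart, and TNE replicate 3 was the lowest TNE array. Rbm3 was 2.13-fold higher (10.57 ± 0.18 against 11.66 ± 0.30, SD, n = 3 each, limma adjusted p = 0.0323), and Rbm45, a neural RNA-binding protein, 2.48-fold (9.09 ± 0.56 against 10.40 ± 0.22, SD, n = 3 each, limma adjusted p = 0.0359). Rbm3 lost its call without TPIN replicate 1 or 2 or TNE replicate 1 or 2, and Rbm45 without any 1 array other than TPIN replicate 3.

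Rbm10, a splicing repressor and tumour suppressor, had 8.67, 8.65 and 8.76 in TPIN and 9.45, 9.66 and 9.45 in TNE and just missed the threshold (log2 difference 0.83, limma adjusted p = 0.0507). Rbm12b2 had 6.99, 7.47 and 9.41 in TPIN and 9.39, 10.00 and 10.51 in TNE, a difference of 2.01 that did not pass (limma adjusted p = 0.0573). In Rbm12b2, TPIN replicate 3 reached the TNE range. Rbm8a, a core part of the exon junction complex, had 10.40, 10.16 and 11.41 in TPIN and 11.91, 12.26 and 11.44 in TNE, and Rbm25, a U1-associated regulator, 9.21, 9.92 and 10.71 in TPIN and 11.03, 10.96 and 11.39 in TNE. For Rbm8a TPIN replicate 3 and TNE replicate 3 were nearly equal, and neither gene passed (differences 1.21 and 1.17, limma adjusted p = 0.0668 and 0.0740). Rbm17, a partner of U2AF, had 9.27, 9.40 and 10.81 in TPIN and 10.59, 10.81 and 10.39 in TNE, so that TPIN replicate 3 was within the TNE range (difference 0.77, limma adjusted p = 0.223). Rbm28, a nucleolar protein, had a difference of 1.04 (limma adjusted p = 0.0890). Rbm5, which promotes exon skipping in apoptosis genes, and Rbm38, a target of p53, had differences of 0.40 and 0.54 (limma adjusted p = 0.279 and 0.224). Rbm47, an epithelial splicing regulator, was the 1 member with all TNE arrays below all TPIN arrays: 8.15, 7.07 and 7.35 in TPIN and 6.54, 6.66 and 6.91 in TNE. Rbm47 did not pass (log2 difference -0.82, 95% interval -1.61 to -0.02, limma adjusted p = 0.120). Rbm43, Rbm7, Rbm26 and Rbm27 were the other Rbm genes with a negative difference (-0.75, -0.25, -0.13 and -0.09), and Rbm33, Rbm41, Rbm19, Rbm42 and Rbm34 had differences of 0.55, 0.53, 0.40, 0.36 and 0.10. None of these 9 had an unadjusted p under 0.05 in limma.

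CELF proteins, which act in muscle and brain splicing, gave no call in 4 genes, which beside 10.3% of all genes higher was not read as a difference. Of the 4, 3 had an unadjusted p under 0.05 in limma, against 3690 of all 9490 genes. Celf4, a neuronal member, had 7.79, 7.72 and 7.31 in TPIN and 7.72, 9.84 and 10.01 in TNE (log2 difference 1.59, limma adjusted p = 0.0895). TNE replicate 1 was at the level of the TPIN arrays, and the other 2 TNE arrays were about 2 log2 units higher. Celf5 had 7.96, 7.67 and 7.54 in TPIN and 8.13, 8.42 and 9.11 in TNE, a difference of 0.83 (limma adjusted p = 0.108). Celf4 and Celf5 were highest on TNE replicate 3. Celf1, the broadly expressed member, had a difference of 0.73 (limma adjusted p = 0.124), and Celf2 one of 0.15 (limma adjusted p = 0.838). Ptbp1, the repressor of neuronal exons that falls as neurons form, had 10.91, 11.10 and 8.95 in TPIN and 10.46, 10.38 and 9.72 in TNE. TPIN replicate 3 was lowest of all 6 arrays, the groups overlapped, and the difference was -0.13 (95% interval -1.46 to 1.19, limma adjusted p = 0.876).

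Splicing genes outside these families, taken from lists of the rest of the pathway, moved in the same direction in most lists. Of 86 genes in 5 lists of machinery and cofactors 20 rose (23.3%) and none fell, against 10.3% and 10.2% of all genes. An unadjusted p under 0.05 in limma was found for 43 of the 86, against 3690 of all 9490 genes. The median was 0.70, against -0.02 for all genes. Of 40 helicases and step factors 9 rose (22.5%). Ppil1, a prolyl isomerase of the active spliceosome, rose by 3.09-fold (limma adjusted p = 0.00984). The helicase Ddx39a, which also acts in mRNA export, rose by 3.16-fold (limma adjusted p = 0.0133). Sart3, which recycles U4 and U6, and Bcas2, of the complex around Prpf19, rose by 2.73-fold and 2.62-fold. Sart3 and Bcas2 lost their calls without any 1 array other than TPIN replicate 3, Ddx39a without TNE replicate 2, and Ppil1 kept its call without any 1 array.

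Of 15 genes of snRNP assembly 4 rose (26.7%, against 10.3% of all genes). Gemin6, a subunit of the SMN complex that loads Sm rings on snRNAs, had 6.13, 6.97 and 7.31 in TPIN and 9.02, 9.50 and 8.87 in TNE. Its groups lay far apart, and it was 5.03-fold higher (log2 difference 2.33, SE 0.37, limma adjusted p = 0.00620), with a call in every fit that left out 1 array. Ddx20 (Gemin3) and Gemin2 of the same complex rose by 2.70-fold and 2.48-fold, and Ncbp2, of the nuclear cap-binding complex, by 2.03-fold. Of 8 proteins of the minor spliceosome, which removes a rare class of introns, Snrnp35 and Snrnp25 rose, by 2.46-fold and 2.50-fold. Without TPIN replicate 1 or TNE replicate 2, Ddx20, Gemin2, Ncbp2, Snrnp35 and Snrnp25 lost their calls, all but Gemin2 also without TPIN replicate 2, and Ncbp2 also without TNE replicate 1.

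Of 17 genes of the exon junction complex and SR-related coactivators 5 rose (29.4%, against 10.3% of all genes), and the median was 1.04. Luc7l3, a U1-associated protein, led with 9.57, 10.04 and 10.80 in TPIN and 11.71, 11.99 and 12.31 in TNE (3.65-fold, limma adjusted p = 0.0134, lost without TNE replicate 2). Pnn (pinin), Eif4a3, the anchor of the exon junction complex, and Rnps1 rose by 3.27-fold, 2.15-fold and 2.19-fold. Pnn, Eif4a3 and Rnps1 lost their calls without TPIN replicate 1 or 2 or TNE replicate 2 or 3, and Eif4a3 also without TNE replicate 1. None of 6 kinases of splicing factors passed, which beside 10.3% of all genes higher was not read as a difference. An unadjusted p under 0.05 in limma was found for 1 of the 6, against 3690 of all 9490 genes.

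Alternative splicing regulators outside the member families moved in both directions. Of 30 measured genes 8 rose (26.7%, against 10.3% of all genes) and 4 fell (13.3%, near the 10.2% of all genes). Nova1, a regulator of neuronal exons, had 7.21, 7.97 and 6.18 in TPIN and 9.88, 10.09 and 11.83 in TNE, an 11.2-fold rise (7.12 ± 0.90 against 10.60 ± 1.07, SD, n = 3 each, limma adjusted p = 0.00929). Elavl2, a neuronal ELAV protein, had 6.81, 6.47 and 7.38 in TPIN and 8.50, 10.03 and 9.95 in TNE and rose by 6.09-fold (limma adjusted p = 0.00939). Groups of Nova1 and Elavl2 did not overlap, although the arrays within each group were widely spread. Elavl4, of the same neuronal family and also a marker of the neuronal list, was 12.7-fold higher (5.68 ± 0.12 against 9.34 ± 2.05, SD, n = 3 each, limma adjusted p = 0.0261), but TNE replicate 3 stood alone at 11.70, and the call was lost without any 1 TPIN array. Tardbp, which encodes TDP-43, and Khdrbs3, a STAR-family regulator, rose by 2.94-fold and 2.54-fold (limma adjusted p = 0.0139 and 0.0149). Without TPIN replicate 1 or 2 or TNE replicate 2 the call of Tardbp was lost.

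The 4 that fell were Rbms3, Rbpms, Mbnl2 and Rbms2. Rbms3, an RNA-binding protein related to Rbms2, had 10.68, 10.57 and 10.24 in TPIN and 7.20, 6.87 and 7.30 in TNE (10.4-fold lower, limma adjusted p = 0.000636). Rbpms, a splicing regulator of smooth muscle, was 13.6-fold lower (limma adjusted p = 0.00310), Mbnl2, a muscleblind protein that promotes adult splicing patterns, 3.68-fold (limma adjusted p = 0.00619) and Rbms2 5.14-fold (limma adjusted p = 0.0177). Every TNE array was below every TPIN array for these 4 genes, on arrays whose fibroblast and smooth muscle marker mean was 11.21 to 11.51 in TPIN and 7.65 to 8.49 in TNE. The part of that marker list in these falls was not tested. Rbms2 lost its call without TPIN replicate 1 or 2 or TNE replicate 2, and the other 3 kept theirs without any 1 array.

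**Figure D5:**
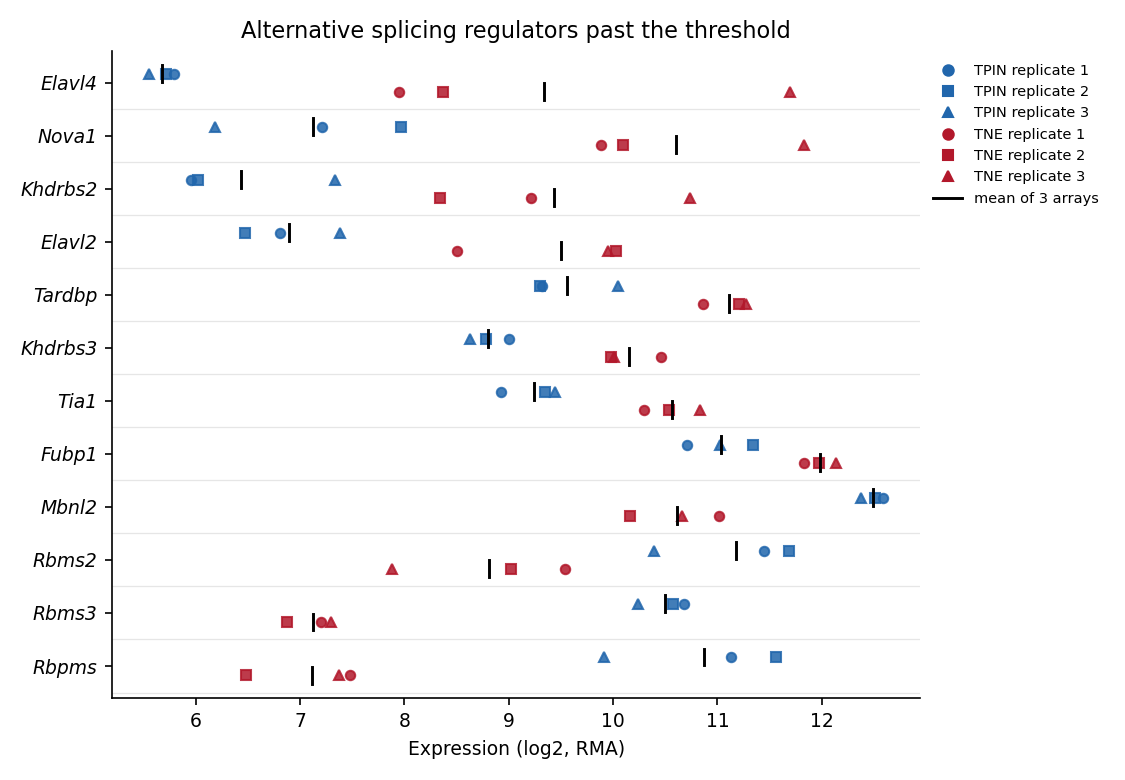
Log2 RMA expression of the 12 alternative splicing regulators that passed, in order of their difference, with 1 point for each array and a bar at each group mean (TPIN in blue, TNE in red). The upper 8 rows have red points to the right of blue and the lower 4 the reverse, from Elavl4 (12.7-fold higher) to Rbpms (13.6-fold lower), and TNE replicate 3 of Elavl4 lies at 11.70.

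Promoter sequence was searched for matches to motifs of 5 transcription factor classes, because members moved together. Windows of 300 bases, from 250 before to 50 after a RefSeq transcription start (GRCm38.p6), were at hand for 74 of the 89 members, of which 18 rose. Matches were sought on both strands. E2F factors, which drive genes of DNA synthesis and the cell cycle, bind the words TTTCCCGC, TTTGGCGC, TTTCGCGC and TTTGCCGC. A match was found in 7 of the 74 members (9.46%), against 4.87% of 7470 genes and 2.26% of all 32851 windows. Of the 18 genes that rose 6 had a match (Hnrnpr, Lsm5, Prpf38a, Srsf1, Srsf10 and U2af1), and of the 56 that did not pass 1 had one (Snrpa). Over all genes, 27.5% of those with such a match rose, against 9.67% of those without. These shares are descriptions without a test, and a match of letters is not a site of binding.

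The windows of the E2F matches follow 5′ to 3′ on the strand of the gene, since they hold the letters on which that count rests, with the match in capitals. For Srsf10, which has 3 matches, the one nearest to the start is given.
Srsf1: cccgcggcgccTTTCCCGCcaaaggccgtt
Srsf10: ccagagatctcGCGGGAAAaagccgttgtc
U2af1: cagcggcgggaGCGGGAAAcagcggtgctg
Hnrnpr: tcgcggtgcttTTTCCCGCctccgcccgcc
Prpf38a: aggagaaaactTTTCGCGCcactaaccgaa
Lsm5: ctggtcttccgGCGGCAAAttatctctgaa
Snrpa: cccgggacgccTTTCGCGCacgtggactaa
They lie at chr11:88047295-88047324 (plus strand, 67 bases before the start), chr4:135855998-135856027 (plus, 62), chr17:31658960-31658989 (minus, 214 and 224 before 2 annotated starts), chr4:136311370-136311399 (plus, 217), chr4:108579416-108579445 (minus, 98), chr6:56704884-56704913 (minus, 203) and chr7:27195818-27195847 (minus, 76), in the order of the lines. In Snrpa the last base of the match is also the first base of an E-box, CACGTG.

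Srsf1 and Lsm6 kept their calls without any 1 array, and the 150 bases upstream of their starts show how unlike both promoters are in these letters. The Srsf1 stretch, chr11:88047223-88047372 on the plus strand, has 64.0% G and C and holds the E2F match in capitals. The Lsm6 stretch, chr8:78821153-78821302 on the minus strand, has 52.0% G and C, and its window held no match to the E2F words, which says nothing of the factors themselves.
Srsf1: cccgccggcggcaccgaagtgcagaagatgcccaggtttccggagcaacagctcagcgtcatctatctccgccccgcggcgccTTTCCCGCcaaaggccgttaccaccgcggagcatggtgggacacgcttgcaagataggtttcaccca
Lsm6: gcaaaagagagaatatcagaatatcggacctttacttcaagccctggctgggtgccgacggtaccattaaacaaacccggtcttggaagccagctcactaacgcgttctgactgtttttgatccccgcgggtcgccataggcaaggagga

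The other 4 motifs are set beside the 18 of 74 members that rose. ETS factors, searched as CCGGAAGT, had matches in 13 of 74 members (17.6%, against 8.23% of genes), 2 of them among the 18 that rose. The E-box CACGTG was in 11 members (14.9%, against 897 of 7470 genes), 2 of them among the 18. YY1, searched as CAAGATGGC, was in 4 (5.41%, against 2.30%) and NRF1 in 1 (1.35%, against 2.25%), none of them among the 18.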

How the data were processed

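Biotin-labelled cDNA of 6 samples was hybridised to single-colour arrays. The authors deposited log2 values of 10361 rows, made by RMA according to the submitters' processing notes. Neither the version of RMA nor the choice of rows is given in the sources used here. RMA brings arrays to a shared distribution and narrows differences near background, and no detection call comes with the values. Rows had 1 symbol (9496), more than 1 (374) or no symbol (491) in the array annotation. Rows with several symbols were left out, which removed 8 symbols that follow the rule. For 6 genes with more than 1 row the row of highest mean was used.

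Groups were compared with limma 3.58.1 (R 4.3.3), lmFit and eBayes, two-sided, with Benjamini-Hochberg adjustment over 9490 genes, a threshold of 0.05 and no covariate. The step was tested on simulated data. Each value is a mean ± SD over 3 arrays, and the number of arrays limits the precision. Replicate numbers follow accession order and pair nothing. Each sample title also carries a code of digits whose meaning is not given, so which samples were handled together is not known. The members, gene lists, motifs and tests were chosen with earlier results of these data known. Genes named were those that passed, up to 4 of smallest p in each direction in other lists, and a short list of well-known members; the other members named were added after their values were seen, as were the 7 promoter windows. Alternatives were a repeated quantile normalization, median centring, dim genes left out (below the 25th percentile), the mean of a gene's rows, eBayes with trend and robust, array weights, stricter thresholds and each array left out. Promoters are from RefSeq (GRCm38.p6). All 89 members matched RefSeq by Entrez identifier. Genome position of the array rows and protein sequences were not used here.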

Additional observations from a re-analysis of the deposited data

How the results depend on the processing

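The number of splicing factor genes higher in TNE was 20 and stayed between 20 and 24 with repeated quantile normalization, median centring, dim genes left out, averaged rows, or eBayes with trend and robust. It was 55 with array weights, 2 at an adjusted p under 0.01, and 2 to 41 when 1 array was left out. The number lower was 0 in each of these, or 1 (Sf3a2, without TPIN replicate 3), a range of 0 to 1. For the other splicing lists 28 were higher and 4 lower, 71 and 8 with array weights, and 7 to 49 and 3 to 7 with 1 array left out. Of all genes 10.3% were higher in the main fit, 23.7% with array weights, and 3.76% to 13.8% with 1 array left out. The cause of these shifts was not tested. The direction changed for genes that did not pass: Celf2 was at -0.45 and U2af2 at 0.00 with array weights. Over the fits with 1 array left out, log2 differences ran from -0.38 to 0.58 for Celf2, -0.21 to 0.39 for U2af2, 0.00 to 0.62 for Lsm8, -0.82 to 0.26 for Ptbp1, -0.35 to 0.00 for Rbm26, -0.39 to 0.14 for Rbm27, -0.04 to 0.29 for Rbm34, -0.96 to 0.00 for Sf3a2, -0.18 to 0.40 for Sf3b5, -0.05 to 0.27 for Snrpa and -0.04 to 0.26 for Srsf12. Medians kept their direction for the members (0.67 to 0.90). No paired analysis was possible because the labels give the samples no replicate numbers. RMA values carry no detection call, so dim genes cannot be told from absent ones.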

Other observations

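Families that process RNA next to splicing, chosen after the data were seen, had mostly positive differences too, at the same limma threshold that 10.3% of all genes passed upward. An unadjusted p under 0.05 in limma was found for 3690 of all 9490 genes. Of 7 genes of the RNA exosome, the complex that trims and degrades RNA from its 3′ end, 2 rose and none fell (4 with unadjusted p under 0.05). Exosc2, a cap subunit, had 8.57, 8.70 and 8.59 in TPIN and 10.71, 11.07 and 10.29 in TNE, with the TPIN arrays almost level and the groups far apart. It was 4.21-fold higher in TNE (limma adjusted p = 0.00400), a call kept without any 1 array. Exosc7 rose by 1.97-fold (limma adjusted p = 0.0344), a call lost without any 1 array other than TPIN replicate 3.

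Of 6 genes of cleavage and polyadenylation 2 rose. Cstf2, which binds the sequence downstream of the cleavage site, had 9.04, 9.23 and 8.96 in TPIN and 10.33, 10.35 and 10.41 in TNE and rose by 2.43-fold (limma adjusted p = 0.0117, lost without TNE replicate 2). Cpsf2 rose by 2.10-fold (limma adjusted p = 0.0317), a call lost without any 1 array other than TPIN replicate 3. None of 6 genes of the THO export complex passed, and 3 had an unadjusted p under 0.05 in limma (median 0.67). In each of the 6 all TNE arrays lay above all TPIN arrays, as in 23.3% of all genes. None of 3 genes of nonsense-mediated decay passed or had an unadjusted p under 0.05 in limma (median 0.43).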
